A study of Mus musculus with 2 samples.

Results

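The genes described here are Arhgap21, Serp2, Tns3 and Med13l, 4 of 21938 annotated mouse protein-coding genes, which were chosen by the number of Nanog peaks assigned to them. A peak was assigned to the protein-coding gene with the nearest transcription start site (TSS), measured from the middle base of the peak and at most 1000 kb away. Each gene counted with its outermost annotated start only. By this rule the 4 genes held 48 of the 8735 distinct Nanog peaks on chromosomes 1 to 19 and X (0.550%). Nanog occupancy was mapped by chromatin immunoprecipitation and sequencing (ChIP-seq) in Bruce-4, a mouse embryonic stem cell (ESC) line grown with serum and leukemia inhibitory factor (mLIF), with the rabbit monoclonal antibody D1G10. The series has 1 immunoprecipitated sample and 1 input sample from the same line, with no genetic change or treatment named for either. The input has no peak list and was not analysed here. The Nanog list gives positions only, so no value below has a replicate error, peak strength and read depth are unknown, and the ESC label could not be checked against expression.

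Nanog is a homeodomain transcription factor of the pluripotency network, and in ESCs it often binds the same regions as Oct4 and Sox2. Many of these regions are enhancers far from promoters, and enhancers near genes of cell identity can lie in dense clusters. A peak list does not say which gene a distant site acts on, and nearest-gene assignment is a convention that favours genes in gene-poor surroundings. Arhgap21 encodes a GTPase-activating protein, Serp2 a member of the stress-associated endoplasmic reticulum protein family, Tns3 a tensin that links focal adhesions to the actin cytoskeleton, and Med13l a subunit of the Mediator kinase module.

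Peaks of each gene were numbered along its strand, number 1 being the farthest upstream. The sequences below are given to show the DNA under the peaks that the results turn on. They are plus-strand sequence of GRCm38/mm10, with the whole peak or the middle 300 bases of a longer one. Capitals mark copies of the motifs searched: CCATTGT or CCTTTGT for Sox factors, ATGCAAAT for the Oct octamer and CCATTA for the Nanog core, on either strand. The first set holds the peak closest to the TSS of Serp2, Tns3 and Med13l. Copies lie in the peak of Tns3 (a Sox copy on the plus strand and a Nanog core on the minus strand), and none lies in the bases shown for Serp2 and Med13l.
Serp2 peak 11 (chr14:76559243-76559488): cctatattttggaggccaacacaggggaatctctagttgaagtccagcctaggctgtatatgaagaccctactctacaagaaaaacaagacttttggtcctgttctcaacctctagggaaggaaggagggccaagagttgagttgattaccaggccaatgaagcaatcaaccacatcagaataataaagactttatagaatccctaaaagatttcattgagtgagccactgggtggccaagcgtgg
Tns3 peak 5 (chr11:8659084-8659328): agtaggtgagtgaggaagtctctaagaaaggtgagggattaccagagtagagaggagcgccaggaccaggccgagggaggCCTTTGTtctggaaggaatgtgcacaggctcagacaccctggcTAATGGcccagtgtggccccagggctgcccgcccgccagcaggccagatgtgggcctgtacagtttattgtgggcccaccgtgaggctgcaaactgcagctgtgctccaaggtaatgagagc
Med13l peak 6 (chr5:118575154-118575453): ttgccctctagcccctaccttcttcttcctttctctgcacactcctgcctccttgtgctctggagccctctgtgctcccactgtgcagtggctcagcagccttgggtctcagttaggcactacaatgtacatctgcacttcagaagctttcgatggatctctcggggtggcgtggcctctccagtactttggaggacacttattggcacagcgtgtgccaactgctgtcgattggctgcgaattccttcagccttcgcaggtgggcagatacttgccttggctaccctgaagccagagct
The peaks with the most copies of their gene follow for Tns3 and Med13l, each with 3 copies. In Med13l peak 9, a Sox copy on the minus strand and one on the plus strand stand side by side with 0 bases between them.
Tns3 peak 3 (chr11:8723191-8723490): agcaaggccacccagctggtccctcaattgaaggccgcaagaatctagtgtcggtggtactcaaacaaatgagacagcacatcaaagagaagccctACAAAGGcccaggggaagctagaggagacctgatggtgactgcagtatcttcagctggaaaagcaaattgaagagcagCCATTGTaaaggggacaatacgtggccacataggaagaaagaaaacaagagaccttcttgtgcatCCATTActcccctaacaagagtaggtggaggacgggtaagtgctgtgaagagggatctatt
Med13l peak 9 (chr5:119055468-119055767): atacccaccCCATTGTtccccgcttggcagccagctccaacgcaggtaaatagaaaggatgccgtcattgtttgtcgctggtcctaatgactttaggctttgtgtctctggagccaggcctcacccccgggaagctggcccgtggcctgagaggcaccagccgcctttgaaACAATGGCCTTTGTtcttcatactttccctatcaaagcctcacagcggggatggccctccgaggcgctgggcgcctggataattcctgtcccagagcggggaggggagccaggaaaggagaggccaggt
The last set shows both octamer copies of the 48 peaks and a Sox copy from the largest Serp2 cluster, peaks that were picked after their values were seen. The corresponding wide peaks of Arhgap21 (peak 7) and Serp2 (peak 10) have their copies outside the middle 300 bases and are not printed.
Arhgap21 peak 8 (chr2:20668478-20668749): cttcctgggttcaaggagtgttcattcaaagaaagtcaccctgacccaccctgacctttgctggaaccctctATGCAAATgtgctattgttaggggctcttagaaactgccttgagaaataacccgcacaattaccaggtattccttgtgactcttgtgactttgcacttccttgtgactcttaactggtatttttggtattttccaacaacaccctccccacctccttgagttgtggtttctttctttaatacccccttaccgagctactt
Serp2 peak 4 (chr14:76660928-76661208): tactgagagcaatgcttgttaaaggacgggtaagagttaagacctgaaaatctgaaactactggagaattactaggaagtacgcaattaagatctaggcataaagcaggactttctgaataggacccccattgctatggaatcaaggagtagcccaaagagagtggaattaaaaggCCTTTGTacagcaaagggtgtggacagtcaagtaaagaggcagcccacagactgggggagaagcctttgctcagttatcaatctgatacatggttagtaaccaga
Med13l peak 4 (chr5:118445361-118445616): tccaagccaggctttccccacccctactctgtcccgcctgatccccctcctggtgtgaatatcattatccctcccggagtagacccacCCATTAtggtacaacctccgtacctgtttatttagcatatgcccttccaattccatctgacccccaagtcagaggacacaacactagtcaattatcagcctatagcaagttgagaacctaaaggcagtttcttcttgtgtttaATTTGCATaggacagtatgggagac

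The number of assigned peaks placed Arhgap21 first with 15 peaks. Serp2 had 12 peaks and shared rank 3 with Rybp. Tns3 had 11 and shared rank 5 with Grik3 and Tbl1xr1, and Med13l had 10 and shared rank 8 with 5 other genes. These counts chose the genes and are given without a test. They lie at the far end of a steep distribution, since 64.8% of the 5353 genes with a peak had 1 and only 13 genes, 0.0593% of all protein-coding genes, had 10 or more.

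**Figure D1:**
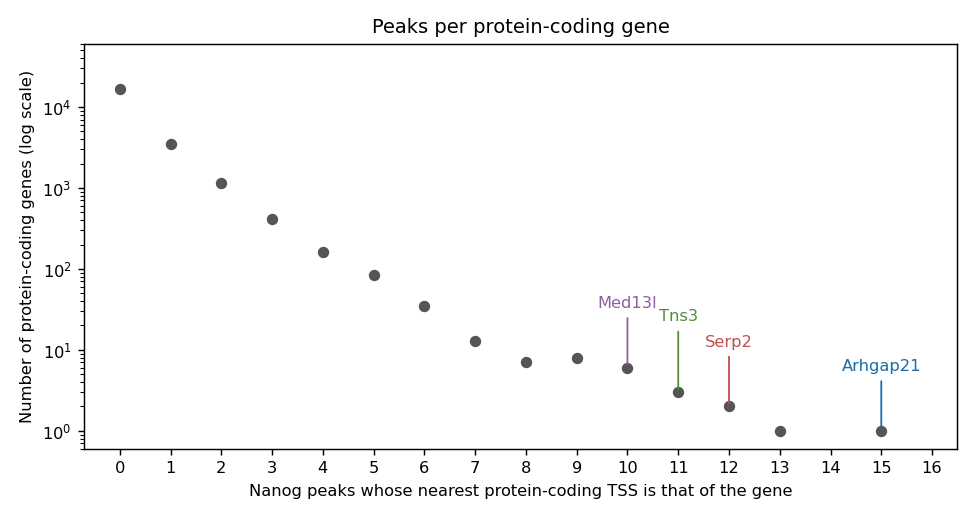
Number of protein-coding genes (log scale) against the number of Nanog peaks assigned to them. The 4 labelled genes sit at 15, 12, 11 and 10 peaks, where each point stands for 1 to 6 genes.

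A high count did not always go with a high density. The territory of a gene, the stretch of genome to which its TSS is the nearest protein-coding TSS, measured 648 kb for Arhgap21, 311 kb for Serp2, 880 kb for Tns3 and 713 kb for Med13l. The median over protein-coding genes was 47.7 kb, so all 4 genes lie in wide stretches without the outermost start of another protein-coding gene. Inner transcript starts can lie in them, and the territory of Arhgap21 holds a protein-coding transcript start of the neighbouring gene Etl4. Per Mb of territory, Serp2 had 38.6 peaks, Arhgap21 23.2 and Med13l 14.0, against 3.20 peaks per Mb over the chromosomes. The counts that chose the genes enter these densities, so the excess over 3.20 per Mb carries no information of its own. All 13 genes with 10 or more peaks lay above that value. Tns3, with 11 peaks in 880 kb, had the lowest density of the 4. Among the 13 genes with 10 or more peaks, whose densities ranged from 5.93 to 38.6 per Mb, Serp2 ranked first, Arhgap21 rank 6, Med13l rank 10 and Tns3 rank 11. The 4 genes were thus chosen for their counts, and the same order does not hold for density.

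Of the other 9 genes with 10 or more peaks, 5 are given for scale, and genes on chromosome 18 were left out. The densities of these 5 ran from 5.93 to 25.4 per Mb. The genes at density ranks 2 and 3 are among those left out. Serp2 ranked first only among the 13 genes, since a gene with 7 peaks had 49.3 per Mb. Rybp, a subunit of variant Polycomb repressive complexes, had 12 peaks at 25.4 per Mb. Grik3, a kainate receptor subunit, had 11 at 24.5 per Mb. Tbl1xr1, a subunit of nuclear corepressor complexes, had 11 in the widest territory of the 13 genes (1855 kb) and the lowest density, 5.93 per Mb. Adamts9, a secreted metalloprotease, and Jarid2, a partner of Polycomb repressive complex components, had 10 each, at 14.1 and 16.4 per Mb.

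Layout differed from gene to gene. Of the 48 peaks, 20 were upstream and 28 downstream of the TSS of their gene, and 11 lay inside the body of that gene. Arhgap21 had its 15 peaks all downstream, from 30.2 to 475 kb. Serp2 had 11 of 12 upstream, and its peaks ran from 184 kb upstream to 61.6 kb downstream. Tns3 had peaks on both sides, 4 upstream and 7 downstream, within 147 kb of the TSS. Med13l had 5 upstream and 5 downstream, spread over 651 kb. By the outermost start of each gene, most peaks were far from a protein-coding TSS. Over 50 kb from the nearest one were 39 of 48 (81.2%, exact 95% Clopper-Pearson interval 67.4 to 91.1), against 39.6% of the 8687 other peaks. Only Serp2 peak 11 was within 5 kb of one (2.08%, interval 0.0527 to 11.1, against 14.7%). Inner transcript starts, which these shares leave out, were closer for some peaks. Such a start was 3.20 kb from Tns3 peak 10, 4.74 kb from Arhgap21 peak 1 and 4.86 kb from Arhgap21 peak 12. Distance is bound up with the choice of the genes, whose territories were all wide (311 to 880 kb), so these shares describe the genes chosen. The intervals cover counting error alone and take each peak as an independent draw, which neighbouring peaks may not be.

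**Figure D2:**
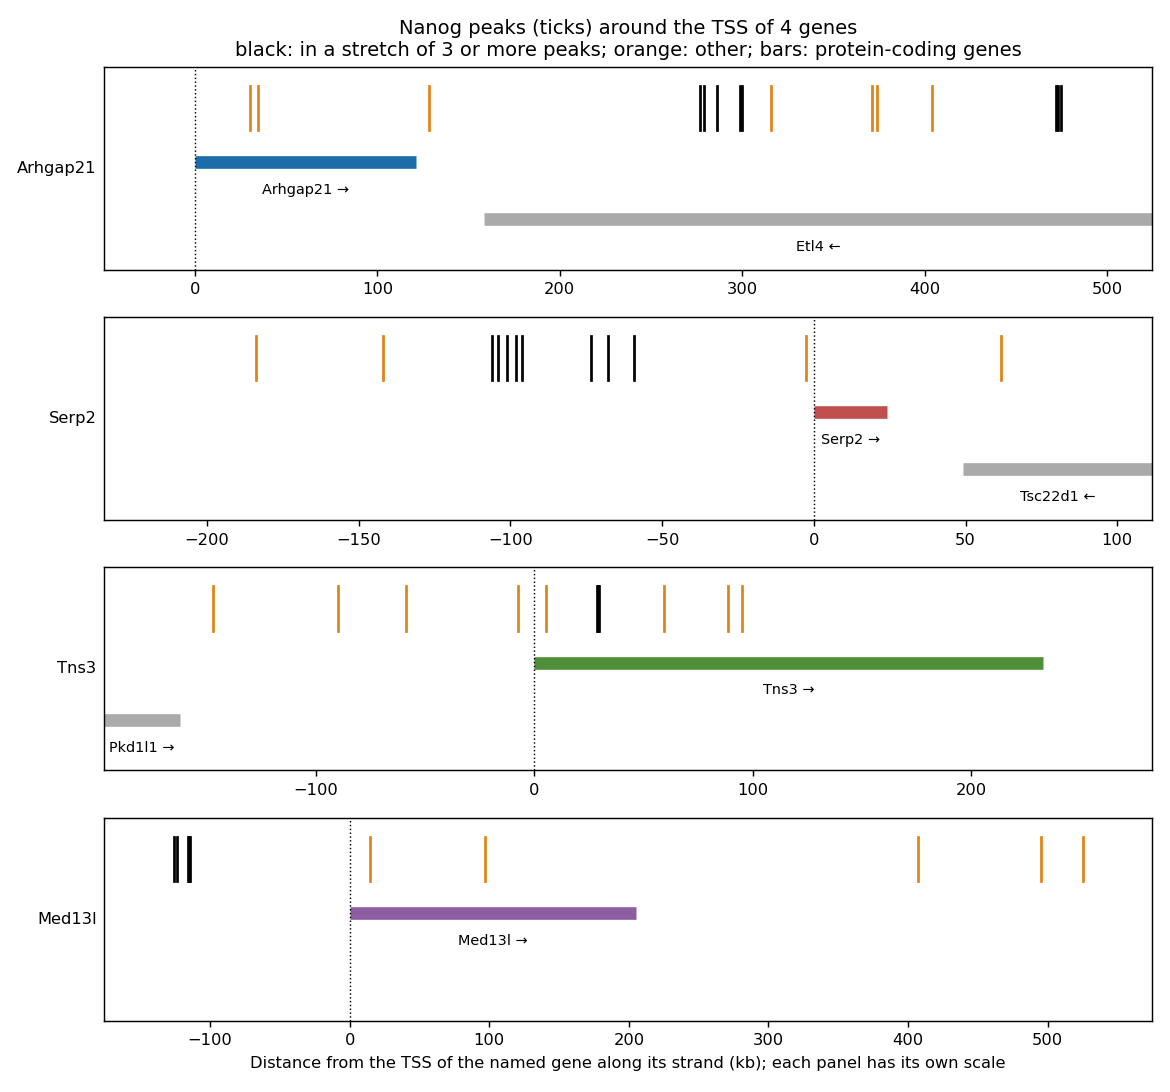
Positions of the 48 Nanog peaks (ticks) in kb from the TSS of each gene along its strand, with protein-coding gene bodies as bars and arrows for their direction relative to the named gene. The Arhgap21 peaks are all downstream and mostly over Etl4. Those of Serp2 are mostly upstream in sequence without protein-coding genes. Those of Tns3 lie on both sides of the TSS, and those of Med13l in a group of 5 upstream and scattered peaks downstream.

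Arhgap21 (ENSMUSG00000036591.16, chr2:20847919-20968881, minus strand) is 121 kb long and held 2 of its 15 peaks. Peaks 1 and 2, at 30.2 and 34.3 kb, lay in intron 2 of its transcript Arhgap21-201, which has 25 introns and an intron 2 of 52.5 kb. Another 13 peaks lay beyond the 3′ end of the gene. Peak 3, at 128 kb, was in the 37.2 kb between the 3′ ends of Arhgap21 and Etl4, genes that point toward each other. The remaining 12, at 277 to 475 kb, were in introns of Etl4 (ENSMUSG00000036617.16, chr2:19909780-20810713, plus strand), also called Sickle tail, a gene with a role in notochord and intervertebral disc development. Etl4 is 901 kb long, and its annotated 5′ end is 1059 kb from the TSS of Arhgap21, which is why peaks in its downstream portion were assigned to Arhgap21.

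Within Etl4 the peaks fell in 3 introns of the transcript Etl4-207, which has 7. Intron 5, of 47.3 kb, held peaks 4 to 8, which form a single cluster of 5 peaks (a chain of neighbours within 12500 bp of each other, edge to edge) at 277 to 300 kb from the Arhgap21 TSS. Intron 4, of 132 kb, held peak 9 at 316 kb, peaks 10 and 11 at 371 and 374 kb, and peak 12 at 404 kb. Intron 3, of 240 kb, held peaks 13 to 15, at 472 to 475 kb, with 95 bp between peaks 13 and 14. The body of Etl4 held 16 peaks in all, of which 4 were assigned to Etl4 itself and 12 to Arhgap21. Which of the 2 genes, if either, these sites act on cannot be read from positions.

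Alternative starts of Etl4 change this assignment. When every annotated transcript start of a protein-coding gene competed, all 12 Etl4 peaks went to Etl4 and 3 stayed with Arhgap21. Peaks 13 to 15 lay 13.3 to 16.0 kb from the start of Etl4-201, a protein-coding transcript that begins at position 20510047. Peaks 10 to 12 were 4.86 to 37.5 kb from the start of Etl4-215, and peaks 4 to 9 were 21.7 to 60.0 kb from that of Etl4-211. Etl4-211 and Etl4-215 are annotated as processed transcripts without a coding sequence. With protein-coding transcripts alone the split was the same, 12 to Etl4 and 3 to Arhgap21, an alternative added after the values were seen. The peaks of Etl4 thus lay closer to internal Etl4 starts than to any start of Arhgap21. The next gene on the other side, Enkur, which encodes the ciliary and sperm protein enkurin, has its TSS 236 kb from that of Arhgap21 and had 0 assigned peaks.

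Serp2 (ENSMUSG00000052584.10, chr14:76532814-76556889, minus strand) is the shortest of the 4 genes, 24.1 kb, and had 0 peaks in its body. Its closest peak, peak 11, was centred 2.48 kb upstream of the TSS and was 246 bp wide, with a soft-masked (repeat) base at its centre. Peaks 3 to 7 formed a cluster of 5 over 10.5 kb at 96.1 to 106 kb upstream (chr14:76652827-76663304). Peaks 8 to 10 formed a cluster of 3 over 14.8 kb at 59.4 to 73.3 kb upstream. Peaks 1 and 2 stood alone at 184 and 142 kb upstream. The 11 upstream peaks were all intergenic, in a gap of 480 kb between the TSSs of Serp2 and Ccdc122, whose TSS was 296 kb from its closest Serp2 peak.

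Peak 12 of Serp2 lay in another gene. It was 61.6 kb downstream of the Serp2 TSS, inside intron 3 of 4 of Tsc22d1-204, a transcript of Tsc22d1, which encodes a leucine zipper regulator that responds to TGF-beta. The annotated 5′ end of Tsc22d1 was 80.3 kb from this peak, and an alternative Tsc22d1 start was 6.83 kb from it. Tsc22d1 was the only other protein-coding gene with an annotated 5′ end within 100 kb of any of the 48 peaks. Within that limit Tns3 had 10 of its 11 peaks, Serp2 7 of 12, and Arhgap21 and Med13l 2 each.

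Tns3 (ENSMUSG00000020422.13, chr11:8431652-8664535, minus strand) spans 233 kb and held 7 of its peaks in its own introns. Intron 1 of transcript Tns3-201, of 48.6 kb, held peaks 5 to 8 at 5.33, 28.6, 29.2 and 29.6 kb from the TSS. Intron 2 held peak 9 at 59.2 kb. Intron 4, of 29.4 kb, held peaks 10 and 11 at 88.6 and 94.9 kb. All 7 were in the 5′ portion of a transcript with 30 introns. Upstream, peaks 4, 3, 2 and 1 lay at 7.43, 58.8, 90.0 and 147 kb, all intergenic. Peaks 4 and 5 stood on either side of the TSS and were chained into a cluster of 13.1 kb that spans the 5′ end of the gene. Tns3 had the smallest median distance to the TSS of the 4 genes, 58.8 kb, against 97.2 kb for Serp2, 120 kb for Med13l and 300 kb for Arhgap21.

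The assignment to Tns3 was contested for 1 peak. Peak 1 was 147 kb from the Tns3 TSS and 161 kb from that of Pkd1l1, a polycystin family gene with 0 assigned peaks. An alternative Pkd1l1 start lay 52.0 kb from it. The TSS of the other neighbour, Igfbp3, a binding protein of insulin-like growth factors, is 1451 kb from that of Tns3.

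Med13l (ENSMUSG00000018076.12, chr5:118560679-118765438, plus strand) spans 205 kb and held 2 of its 10 peaks, peak 6 in intron 1 (32.5 kb) at 14.6 kb from the TSS and peak 7 in intron 2 (77.4 kb) at 97.2 kb. Peaks 1 to 5 formed 1 cluster over 12.2 kb (chr5:118434802-118447040), intergenic and 114 to 126 kb upstream. Peaks 8, 9 and 10 lay beyond the 3′ end, at 407, 495 and 525 kb from the TSS. The gene on that side is Tbx3, a T-box transcription factor gene with 7 assigned peaks, whose TSS is 1110 kb from that of Med13l. Peak 10 was 585 kb from the Tbx3 TSS and peak 9 was 615 kb from it, 1.11 and 1.24 times the distance to Med13l. Peaks 9 and 10 thus lay near the midpoint of the long gap between the 2 TSSs. The upstream neighbour is 2410131K14Rik, with its TSS 315 kb away.

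Competition from non-coding genes removed most peaks from every gene but Tns3. When all annotated genes competed, 10 of the 48 peaks stayed with their gene. Arhgap21 kept 0, and its peaks went to the antisense genes Gm13362 (6 peaks) and Gm13335 (2), the miscellaneous RNA Gm27446 (4) and the sense-intronic Gm13380 (3). Serp2 kept peak 11, while 5 peaks went to the processed transcript 1700108F19Rik, 4 to the processed pseudogene Fkbp1a-ps1 and 1 each to the lincRNAs 4930431P22Rik and 4930444M15Rik. Med13l kept 0, with the 5 upstream peaks nearest to the miRNA gene Gm26455. Tns3 kept 9 and lost 2 to the processed pseudogene Gm11990. When all transcript starts of protein-coding genes competed, 34 of 48 stayed. The losses were the 12 Etl4 peaks, 1 Serp2 peak and 1 Tns3 peak, and Med13l lost none. Neither reassignment was counted over the other peaks, so whether such losses are particular to these genes was not tested.

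**Figure D3:**
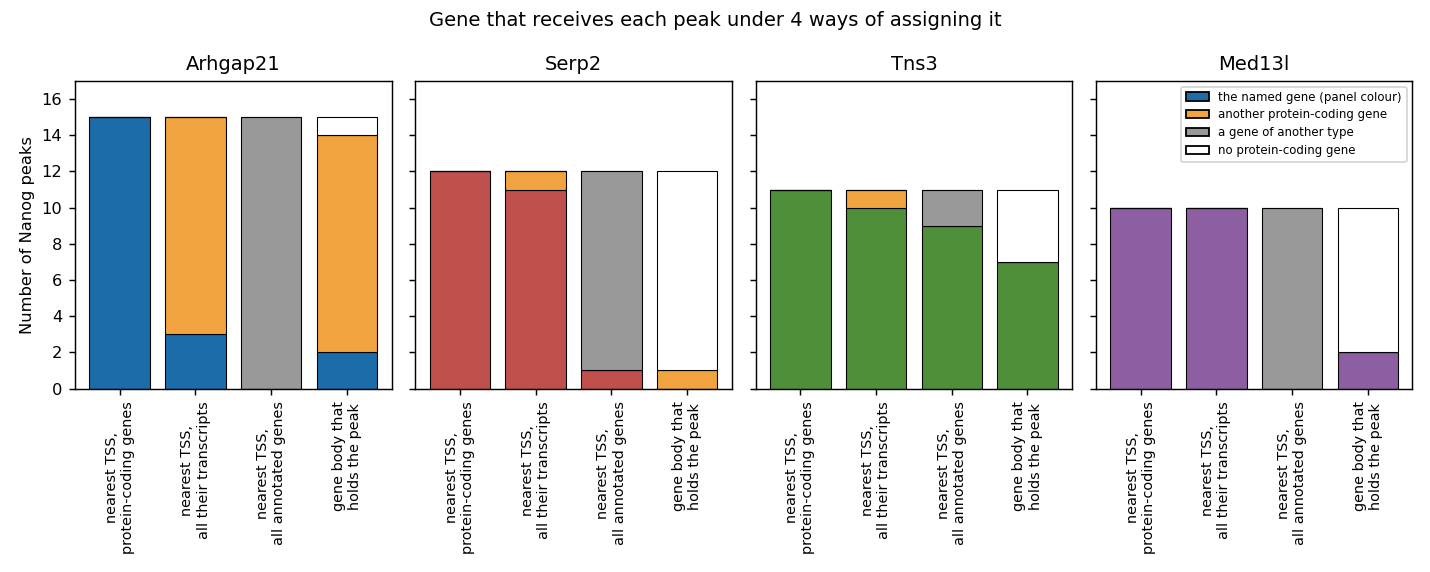
Number of peaks of each gene (bars from 0) by the gene that receives them under 4 ways of assignment: nearest TSS among protein-coding genes, among all their transcripts, among all annotated genes, and the protein-coding gene body that holds the peak. Tns3 keeps 11, 10, 9 and 7 peaks, whereas Arhgap21 falls from 15 to 3, 0 and 2.

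By annotation, 24 of the 48 peak centres (50.0%, interval 35.2 to 64.8) were in introns and 24 were intergenic, against 47.5% and 46.2% of the other peaks. No centre was in an exon (0 of 48 peaks, interval 0 to 7.40%), and the interval includes the 6.27% of the other peaks. The share in introns was close to that of the other peaks. Of the 48, 13 (27.1%, interval 15.3 to 41.8) were in an intron of a protein-coding gene other than the nearest one, against 11.3% of the other peaks. Of these 13, 12 were the Etl4 peaks of Arhgap21 and 1 was the Tsc22d1 peak of Serp2. The share therefore mostly describes 1 locus, whose peaks also gave Arhgap21 the count it was chosen for. Repeats were not prominent. The centre was soft-masked in 6 of 48 peaks (interval 4.73% to 25.2%) against 20.4% of the other peaks.

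Close spacing was frequent among these peaks. The chaining distance of 12500 bp is a common stitching distance for super-enhancers. Of the 48 peaks, 32 (66.7%, interval 51.6 to 79.6) were in a chain of 2 or more, against 23.9% of the other peaks. Chains of 3 or more held 24 (50.0%, interval 35.2 to 64.8), against 5.51%. Chains of 5, the longest in the list, held 15 (31.2%, interval 18.7 to 46.3), against 0.288%. The 15 peaks in chains of 5 make up 3 chains, and peaks of a chain enter together. The intervals take each peak as an independent draw and are therefore too narrow. Because the genes were selected on their number of peaks, close spacing is built into these shares to an extent that was not tested.

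The list had 8 chains of 5 peaks in all, and Arhgap21, Serp2 and Med13l held 1 each. The Arhgap21 chain covered 23.3 kb with 2192 bp under peaks, that of Med13l 12.2 kb with 2327 bp, and that of Serp2 10.5 kb with 1457 bp. The Med13l chain thus had more of its length under peaks than the longer chain of Arhgap21. Tns3 had no chain of 5. Its largest held 3 peaks in 1.40 kb of intron 1, with gaps small enough that merging intervals within 300 bp left 9 Tns3 peaks. Together the 4 genes had 3 of the 125 chains of 3 peaks, 4 of the 801 chains of 2, and 0 of the 22 chains of 4. The chains included 12 of the 15 Arhgap21 peaks, 8 of the 12 Serp2 peaks, 7 of the 11 Tns3 peaks and 5 of the 10 Med13l peaks.

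Peak widths were like those of the rest of the list. The median was 344 bp (95% interval 299 to 371, lowest 235, highest 1098) against 319 bp for the other peaks, and 27 of 48 (56.2%, interval 41.2 to 70.5) were at or above the median width of the whole list, against 50.2%. By gene, the median was 362 bp for Arhgap21, 319.5 bp for Serp2, 312 bp for Tns3 and 328 bp for Med13l. The widest peak of each gene lay in one of its chains. Serp2 peak 10, at 1098 bp, was the fifth widest of the whole list (rank 5). Tns3 peak 11 was 782 bp wide, Med13l peak 1 was 755 bp and Arhgap21 peak 7 was 676 bp. Serp2 peak 10 and Tns3 peak 11 were also the only ones of the 48 listed on 2 lines (4.17%, interval 0.509 to 14.3, against 1.38% of the other peaks). Width does not stand for strength here. The median GC content was 47.4%, against 47.7%, and ran from 39.2% in Arhgap21 peak 3 to 59.2% in Tns3 peak 5.

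**Figure D4:**
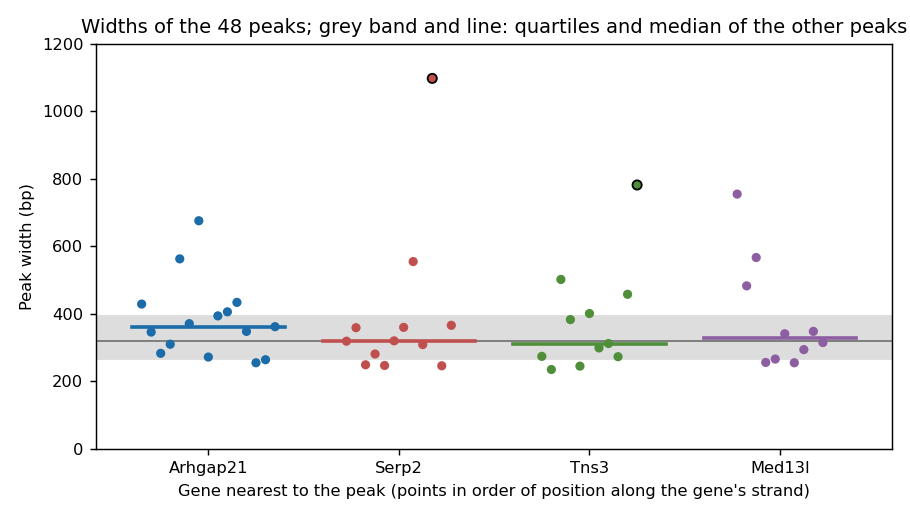
Width in bp of each of the 48 peaks, ordered along the strand of its gene, with the gene's median as a coloured line, a black ring around peaks listed on 2 lines, and the median (319 bp) and quartiles (265 and 393 bp) of the other peaks in grey. Serp2 peak 10 (1098 bp) and Tns3 peak 11 (782 bp) stand above the rest of their genes.

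To describe the DNA under the peaks, 6 consensus motifs of factors that bind enhancers in ESCs were counted on both strands. Besides the Sox, octamer and Nanog core letters given above, these were GCCACACCC, GCCACGCCC, GCCCCACCC or GCCCCGCCC for Klf factors, TCAAGGTCA for Esrrb, and the Oct4-Sox2 composite with at most 2 mismatches. The composite contains octamer and Sox letters, and a copy of the Sox consensus cannot be a Nanog core at the same position and strand. A match describes the letters and not a bound site. At least 1 of the 6 motifs was present in 31 of 48 peaks (64.6%, interval 49.5 to 77.8), against 52.1% of the other peaks. In total there were 41 copies, no pair of copies in a peak shared bases, and 20 copies (48.8%, interval 32.9 to 64.9) lay within 50 bp of the middle of the peak. That share was not counted for the other peaks, so central placement was not tested.

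Sox letters led the counts, with copies in 17 of 48 peaks (35.4%, interval 22.2 to 50.5), against 28.1% of the other peaks. In 89 flanking windows of the same widths, 1 kb beyond the peak edges, it was present in 12.4% (interval 6.33 to 21.0). The Nanog core was in 11 peaks (22.9%, interval 12.0 to 37.3), against 18% of the other peaks and 12.4% of the flanks. The Klf motif was in 6 (interval 4.73% to 25.2%), against 8.98% of the other peaks and 2.25% of the flanks. The octamer was in 2 (4.17%, interval 0.509 to 14.3), against 5.73% of the other peaks and 0 of 89 flanks. Esrrb letters were in 1 peak (2.08%, interval 0.0527 to 11.1), against 3.53% of the other peaks and 2.25% of the flanks. The composite was in 0 of 48 peaks (interval 0 to 7.40%), against 1.40% of the other peaks and 0 of 89 flanks. For each of the 6 motifs the interval of the 48 peaks included the share of the other peaks, so with 48 peaks no difference in motif content between these peaks and the rest of the list was detectable.

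**Figure D5:**
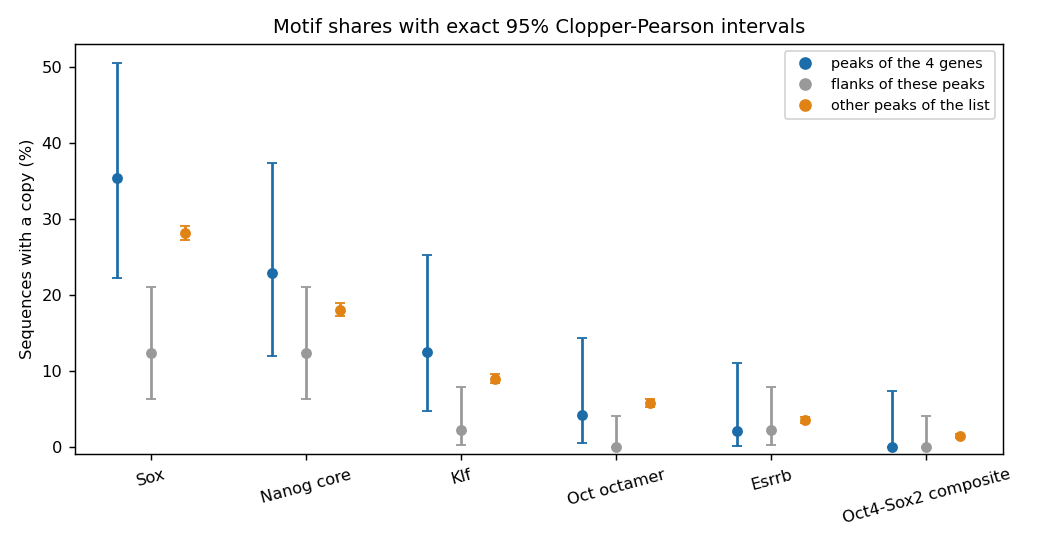
Share of sequences (%) with a copy of each of 6 motifs in the 48 peaks of the 4 genes, in 89 flanking windows of these peaks and in the 8687 other peaks, with exact 95% Clopper-Pearson intervals. The Sox motif is in 35.4% of the 48 peaks, 12.4% of their flanks and 28.1% of the other peaks, and all intervals of the 48 peaks include the value of the other peaks.

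Motifs were spread over the genes rather than held by 1 of them. A copy of any motif was in 10 of 15 Arhgap21 peaks, 7 of 12 Serp2 peaks, 7 of 11 Tns3 peaks and 7 of 10 Med13l peaks. Sox copies were in 5, 4, 5 and 3 of them, and Nanog core copies in 3, 2, 2 and 4. Klf letters were found in 3 Tns3 peaks and in 1 peak of each other gene. The share of peaks with 2 or more copies was not counted for the other peaks. Of the 48, 8 held 2 or more copies, 5 of them at Tns3 and 3 at Med13l. These included Tns3 peak 4, the only one with Esrrb letters, with a Klf copy 148 bases away, and Tns3 peak 5, printed above, where 36 bases separate the Sox copy from the Nanog core.

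Copies were also spread within the clusters. The Med13l cluster had copies in 4 of 5 peaks, 6 copies in all, among them the octamer and a Nanog core of peak 4. The Arhgap21 cluster in intron 5 of Etl4 had 1 copy in each of 4 peaks, among them the octamer of peak 8, whose sequence is 89.7% soft-masked. The Serp2 cluster of 5 had 1 copy in each of 3 peaks, Sox in peaks 4 and 5 and the Nanog core in peak 7. The cluster of 3 in intron 1 of Tns3 had 3 copies in 2 peaks, while the cluster of 3 in intron 3 of Etl4 had a single Sox copy, in peak 15. Outside the clusters, the isolated peak 9 of Med13l, 495 kb from the TSS, held the 3 Sox copies shown above.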

How the data were processed

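Nanog ChIP-seq in Bruce-4 ESCs was used as 1 peak list, and the 1 input sample was not used. According to the methods and the submitters' processing notes, reads were checked with FastQC, aligned to mm10 with Bowtie2, filtered with BEDtools and SAMtools (low quality, duplicates, mitochondrial, blacklisted) and called with MACS2. The threshold, and whether the input served as control, are not given in the sources used here. Both decide which weak sites appear. The authors deposited chromosome, start and end in bp, without score, p-value or depth.

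Of 8860 lines, 123 repeat an interval and were counted once. Sequence came from RefSeq's GRCm38 and genes from GENCODE vM21, with 1-based positions. Introns are numbered in the longest protein-coding transcript spanning the peak. Python 3.11.15, pysam 0.24.0, SciPy 1.17.1 and NumPy 2.4.6 were used, and assignment, chaining and motif search were tested on simulated data. Peaks of 1 library are not replicates, so no p-value was computed. The genes, lists and motifs were chosen with earlier results of these data known. Named genes were the 4 genes, hosts of their peaks, both neighbouring protein-coding genes, genes with a TSS within 100 kb, genes nearest to 3 or more of the peaks under another assignment, and 5 others near them in the ranking, with genes on chromosome 18, which include the one at rank 2, left out. Other non-coding genes were named after their values were seen. The sequence of 1 peak is not reported here.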

Additional observations from a re-analysis of the deposited data

How the results depend on the processing

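Of 53 alternative values of 15 results, 37 moved by at most 1.5 times (counts) or stayed within the interval of the reported value, and 16 moved further. With all annotated genes, Arhgap21 had 0 peaks, Serp2 1 and Med13l 0. With every transcript start of protein-coding genes, or with those of protein-coding transcripts only, Arhgap21 had 3. With a limit of 100 kb, Arhgap21 had 2, Serp2 7 and Med13l 2. Giving a peak first to the gene whose body holds it left Arhgap21 with 3. With only those peaks that reach the median width, of which there are fewer, Serp2 had 7, Tns3 5 and Med13l 5, 14 peaks were in chains and the octamer share was 0%. Arhgap21 had 10 at this setting, which did not exceed the limit of 1.5 times. The repeat share was 4.17% when at least 50% of the bases had to be soft-masked, and the composite share was 8.33% with 3 mismatches allowed, a looser match. No share of the other peaks or of the flanks is given at these settings or at the width cut. These values therefore do not compare the peaks with the rest of the list. The host-first assignment and the protein-coding transcript starts were chosen after seeing the data. Tns3 kept 9 to 12 peaks with all annotated genes, transcript starts, the 100 kb limit, host-first assignment, merging and all lines, and 7 of its peaks lay in its own body. No paired analysis was possible because the input sample has no peak list, and no replicate could be left out. The list holds no reads and no sites under the calling threshold, so peaks missed around these genes cannot be counted, and the effect of the input on the call was not tested.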

Other observations

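Measured by gene body rather than by nearest TSS, the order of the genes changes. Etl4 held 16 peaks in its body, rank 2 of all protein-coding genes, Tns3 7 (shared rank 12), Arhgap21 and Med13l 2 each, and Serp2 0. These body counts were not corrected for length, and Etl4 is longer than 99.6% of protein-coding genes. The 4 peaks of Etl4 assigned to Etl4 itself put it at rank 160 in the ranking by nearest TSS, a rank shared by 160 genes.

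The closest calls between the nearest and the second nearest protein-coding TSS were Tns3 peak 1 (147 kb to Tns3, 161 kb to Pkd1l1), Med13l peak 10 (525 kb to Med13l, 585 kb to Tbx3), Arhgap21 peaks 13, 14 and 15 (472, 473 and 475 kb to Arhgap21, 587, 587 and 584 kb to the annotated 5′ end of Etl4), Med13l peak 9 (495 and 615 kb) and Serp2 peak 12 (61.6 and 80.3 kb). These 7 peaks had a second TSS within 1.30 times the distance of the first.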
